A study of Mus musculus with 9 samples.

Results

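Opposite-strand long noncoding RNAs are transcribed from the strand facing a protein-coding gene, and mouse nomenclature names them after that gene with the ending os. This group was taken from a table of FPKM (fragments per kilobase of transcript, scaled to the fragments of the library) in isolated mouse islets. FPKM of the transcripts listed under 1 name were summed. The members were chosen by their name and by their mean level over all libraries. Names ending in os, or os and 1 digit, with a mean of at least 0.5 FPKM over the 9 libraries were kept, which gave 58 of 205 such names. A further 6 were left out by the rule (Kirrel3os, Pax6os1, Pcsk2os1, Dnmt3aos, Peg3os and Oip5os1), among them Kirrel3os, which differed between the groups in some of the fits below, so that 52 lncRNAs remained, of 10706 names in the table and 2377 that passed the same minimum. RefSeq classes all 52 as long noncoding RNA genes. Of the 205 names with the ending, it classes 196 so and 4 as coding genes. Of the 2377 names, 1176 were Gm followed by a number and 409 ended in Rik. Shares over all names therefore describe this table and not all genes.

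The libraries came from pancreatic islets of female mice, 5 virgin and 4 at GD14.5, a day of gestation. No transgene, diet or drug is named in the labels for either group, and strain, age and the number of animals per library are not given there, so the p-values given here reflect only how these 9 libraries vary, which may be technical. Of 52 marker genes of islet and other pancreatic cell types, 4 had a line in the table (Ttr, Sox9, Col1a1 and Col3a1). The islet hormone genes were among the 52 but not among these 4, so the tissue label could not be checked against them. In bulk islet RNA, fewer cells of a type and less RNA per cell cannot be told apart.

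A noncoding RNA that starts beside the start of its coding neighbour and runs the other way often shares a CpG-rich, bidirectional promoter with it. Others start inside the neighbour and overlap its introns or exons as antisense transcripts. Some antisense RNAs are known to change the transcription, splicing or stability of the gene they face, whereas many have no known function. Islet cells hold several, among them transcripts facing genes of endocrine transcription factors.

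The 52 lncRNAs faced 50 coding genes, because Lrp8 and Bcas3 each had 2. All 52 lay on the same chromosome as the gene they are named after, and the strands were opposite in 52 of 52 (strand from RefSeq promoters or GENCODE). They were spread over 18 chromosomes, with 8 on chromosome 11. Their genomic length ranged from 494 bases (Rab26os) to 151773 bases (Zmiz1os1), with a median of 8882. In 22 the 5′ end of the lncRNA lay within 1000 bases of the 5′ end of the coding gene, head to head. A further 16 lay wholly inside the coding gene, 9 overlapped it in part, and 5 did not overlap it and started further away. The closest pair of starts was Cep83os and Cep83, a centriole appendage gene, at 11 bases on chromosome 10 (Cep83os at 94673493 to 94688613).

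Windows of 300 bases around the annotated start (mostly before it, RefSeq on GRCm38.p6) were on hand for 43 of the 52. The head-to-head lncRNAs differed in base composition from the others. Of the 18 with a window, 17 had a CpG observed-to-expected ratio above 0.6, against 4 of the 25 others, and the medians were 0.872 and 0.296. Over 27025 genes with 1 window each (chromosome 18 left out), the share above 0.6 was 36.5%. Over 1788 other tested names it was 45.7%, and over the 43 it was 48.8%. The median G+C content was 69.8% for the head-to-head windows and 54.3% for the other 25. It was 52.7% over all genes and 55.3% over the other tested names. The median distance between the starts of head-to-head pairs was 131 bases, so many of their windows also hold the start of the coding gene. No set of coding-gene starts alone was set beside them.

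**Figure D1:**
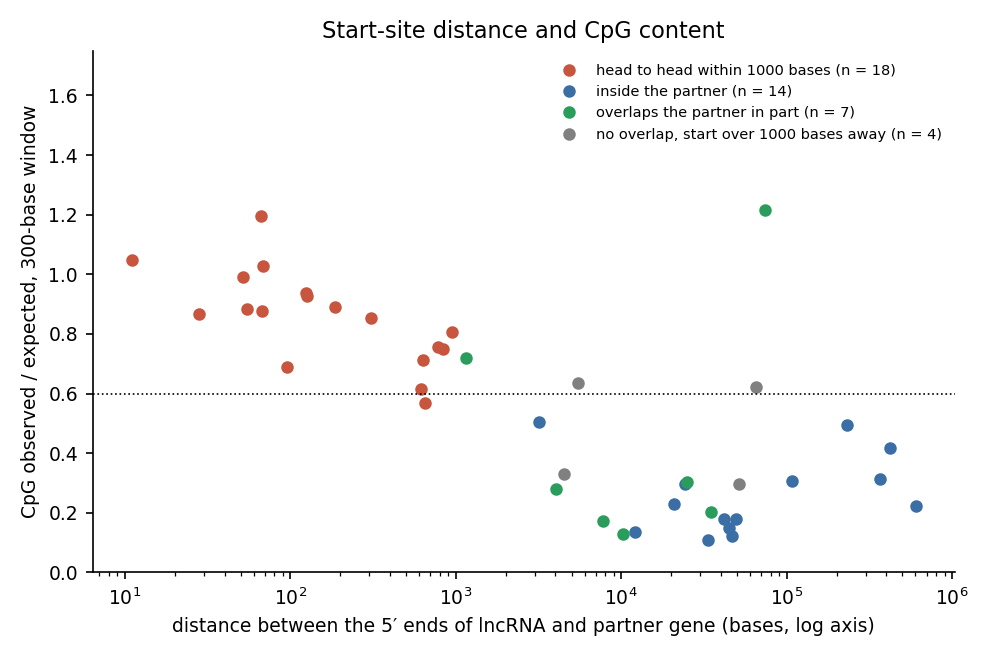
Each point is 1 of the 43 lncRNAs with a start window, with the distance between its 5′ end and that of its coding partner (bases, log axis) and the CpG observed-to-expected ratio of its window. Colours give the arrangement, the dotted line marks 0.6, and 17 of the 18 head-to-head windows lie above it.

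Windows of 6 lncRNAs named in the expression results below show this contrast in the CpG ratio. Tnk2os, at 64.0% G+C, lay above the median of the windows that are not head to head (54.3%). Lrp8os3 and Brip1os, also named below, have no window. Lhx1os, Lppos and Stamos are head to head with their partners, and Nell1os, Tnk2os and Galnt6os lie inside theirs. Each is written 5′ to 3′ in the direction of the lncRNA. Capitals mark matches, on either strand, to any of the 8 motifs searched. These were the TATA box (TATAAA), the core bound by NF-Y (CCAAT), the GC box of SP factors (GGGCGG), the ETS core (CCGGAAG), the YY1 core (AAGATGG), the pattern of STAT dimers (TTCNNNGAA), the cAMP response element (TGACGTCA) and the NRF1 palindrome.
Lhx1os (chr11:84525410-84525709, plus strand): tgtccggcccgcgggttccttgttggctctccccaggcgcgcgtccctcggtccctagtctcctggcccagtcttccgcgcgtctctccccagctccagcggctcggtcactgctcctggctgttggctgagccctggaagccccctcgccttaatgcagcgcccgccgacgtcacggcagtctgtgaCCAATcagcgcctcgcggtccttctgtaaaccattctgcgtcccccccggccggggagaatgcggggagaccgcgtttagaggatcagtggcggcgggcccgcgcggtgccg
Lppos (chr16:24393606-24393905, minus strand): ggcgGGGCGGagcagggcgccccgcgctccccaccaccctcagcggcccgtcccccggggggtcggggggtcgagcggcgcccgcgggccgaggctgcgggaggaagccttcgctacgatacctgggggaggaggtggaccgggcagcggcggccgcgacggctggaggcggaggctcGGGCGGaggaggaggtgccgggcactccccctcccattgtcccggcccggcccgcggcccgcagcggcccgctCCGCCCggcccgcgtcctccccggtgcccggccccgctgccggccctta
Stamos (chr2:14073885-14074184, minus strand): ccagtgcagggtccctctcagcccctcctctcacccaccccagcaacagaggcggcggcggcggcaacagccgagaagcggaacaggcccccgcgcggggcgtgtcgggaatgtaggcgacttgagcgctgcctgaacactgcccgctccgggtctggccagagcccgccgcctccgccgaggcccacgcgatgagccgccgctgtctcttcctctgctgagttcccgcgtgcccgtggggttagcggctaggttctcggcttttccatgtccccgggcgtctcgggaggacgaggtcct
Nell1os (chr7:50575835-50576134, minus strand): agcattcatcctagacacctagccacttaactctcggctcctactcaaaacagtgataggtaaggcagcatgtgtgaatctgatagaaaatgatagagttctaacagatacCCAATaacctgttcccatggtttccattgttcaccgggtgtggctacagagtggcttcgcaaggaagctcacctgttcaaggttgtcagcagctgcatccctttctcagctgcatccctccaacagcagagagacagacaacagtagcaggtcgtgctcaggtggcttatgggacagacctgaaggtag
Tnk2os (chr16:32668148-32668447, minus strand): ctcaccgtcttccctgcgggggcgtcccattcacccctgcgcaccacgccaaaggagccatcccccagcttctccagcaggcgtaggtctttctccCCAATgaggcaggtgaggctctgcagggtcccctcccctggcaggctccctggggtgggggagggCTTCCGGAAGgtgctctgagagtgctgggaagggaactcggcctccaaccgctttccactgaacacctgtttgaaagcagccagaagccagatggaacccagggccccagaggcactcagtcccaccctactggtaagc
Galnt6os (chr15:100695482-100695781, plus strand): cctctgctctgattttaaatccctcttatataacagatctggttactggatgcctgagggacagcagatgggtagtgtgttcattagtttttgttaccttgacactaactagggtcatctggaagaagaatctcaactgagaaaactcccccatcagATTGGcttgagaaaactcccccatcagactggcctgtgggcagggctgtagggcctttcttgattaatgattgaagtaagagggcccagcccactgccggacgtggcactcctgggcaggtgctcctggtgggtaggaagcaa

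The GC box was in 12 of the 18 head-to-head windows and in 6 of the 25 others, against 35.9% of all genes and 42.1% of the other tested names. TATAAA was in 0 and 3, against 14.2% and 11.1%. CCAAT was in 6 and 13, against 38.0% and 35.3%. TTCNNNGAA was in 0 and 5, against 8.42% and 7.55%. CCGGAAG and AAGATGG were each in 2 of the 43 windows (9.14% and 6.46% of all genes), and the NRF1 palindrome and the cAMP response element in 0. In the printed set Lppos held 3 GC boxes at 82.0% G+C and Stamos held no match at 70.3%. Tnk2os had 2 matches to the ETS core, CCGGAAG, which overlap on opposite strands. A match here is a string of letters and not a bound site.

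The level of these lncRNAs followed the library. The median FPKM over all 2377 tested names ranged 4.23-fold between libraries, from 0.6 in virgin 1 to 2.54 in virgin 5. Over the 52 lncRNAs the median ranged from 0.670 to 2.89 in the same libraries. Virgin 4, virgin 5 and GD14.5 replicate 4 were the 3 highest libraries for 36 of the 52, and for 62.1% of all tested names. Virgin 5 alone was the highest for 38 and virgin 1 the lowest for 35. Their share of the FPKM summed over the table was 1.14% ± 0.0773 for the virgin group (SD, n = 5) and 1.12% ± 0.0786 for the GD14.5 group (SD, n = 4). It was 1.05% to 1.25% in single libraries. Most coding genes looked up had no line in the table (6 of 50 partners had one), so this is not a share of all islet RNA. Depth, RNA quality and the scaling behind this range were not tested, and the depth is unknown because the table holds no counts.

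Values are therefore given as deposited and also scaled so that every library has the same median over the tested names, called scaled FPKM. With this scaling the spread within groups (SD of log2(FPKM + 0.5)) was smaller for 45 of the 52. Its median went from 0.55 to 0.23, and over all tested names from 0.59 to 0.25. For 24 of the 52 the highest scaled value was less than 2 times the lowest. Tbc1d22bos, inside a gene of a Rab GTPase-activating protein, was the most even, at 1.38 to 1.69 scaled FPKM over the 9 libraries. Sorbs2os, inside the gene of an actin-binding adaptor, was at 1.38 to 1.72.

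**Figure D2:**
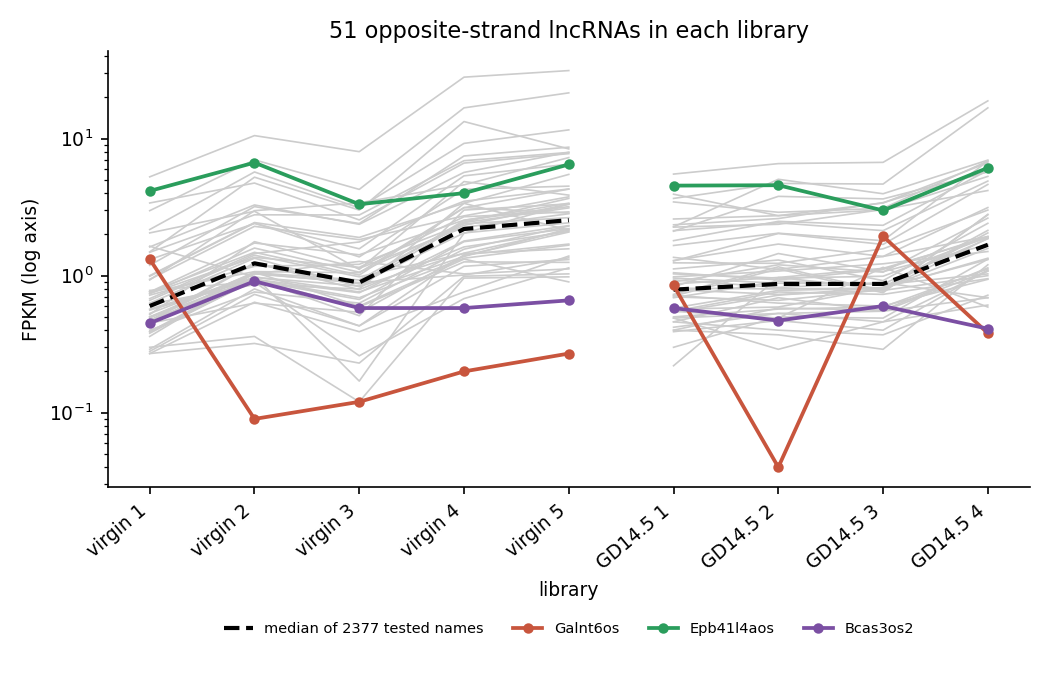
FPKM (log axis) of 51 of the 52 lncRNAs in the 9 libraries; each line joins the values of 1 lncRNA within a group, grey except for 3 named ones, and the dashed line is the median of all tested names. Most lines move with the dashed line, while those of Galnt6os, Epb41l4aos and Bcas3os2, in colour, do not.

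The first comparison asked which opposite-strand lncRNAs differ between GD14.5 and virgin islets. None of the 52 passed the threshold. limma on log2(FPKM + 0.5), with Benjamini-Hochberg adjustment across 2377 names and a limit of 0.05, called 0 of them, against a background of 0.168% (4 names, all higher). The lowest adjusted p among them was 0.817 (limma). With an unadjusted p under 0.05 the count was also 0, where the background was 2.52%. The replicate number as a block called 0 (background 1.09%, lowest limma adjusted p 0.176) and had 4 at an unadjusted p under 0.05, against 9.30%. Virgin 5 has no GD14.5 library of its number, so it does not enter the fold changes with the block. Their median over all names was −0.13, the same as without virgin 5. On scaled FPKM limma called 0, where over all names it called 25 higher and 4 lower (background 1.22%). With both scaling and block it called 0 as well (background 1.05%; lowest limma adjusted p 0.0782).

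As deposited, 41 of the 52 had a lower mean log2 value at GD14.5 and 11 a higher one. Their median log2 fold change was −0.26, and the median over all tested names was −0.30, with 86.7% of names lower. On scaled FPKM the split was 24 lower and 28 higher, with a median of 0.01 against −0.03 over all names. The fold changes ran from −0.65 (Nell1os) to 0.46 (Galnt6os), and every 95% interval contained 0.

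**Figure D3:**
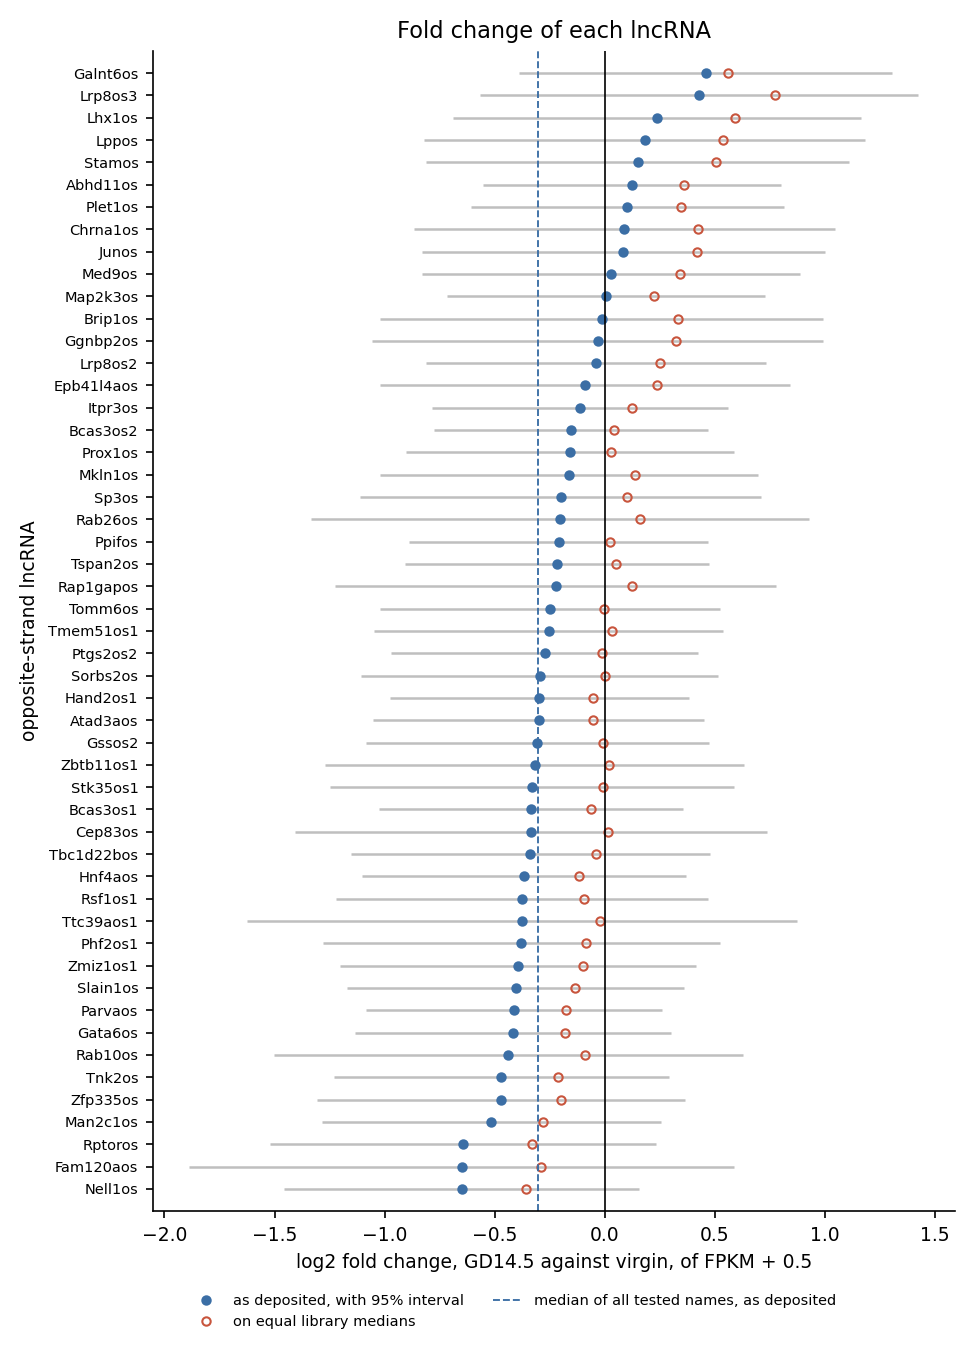
Log2 fold change of FPKM + 0.5, GD14.5 against virgin, of 51 of the 52 lncRNAs: filled points with 95% intervals are as deposited and open points are on equal library medians. All 51 intervals cross 0, and the median of the filled points lies near the dashed median of all tested names at −0.30.

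By the role of the coding partner, the 11 lncRNAs facing transcription factors or coactivators had a median log2 fold change of −0.32, with 9 lower and 2 higher. The 12 facing genes of membrane traffic, small GTPases or the cytoskeleton had −0.26 (10 lower, 2 higher). The 8 facing kinases, receptors or other signalling genes had −0.08 (5 lower, 3 higher). The 8 facing metabolic, mitochondrial or glycosylation genes had −0.26 (6 lower, 2 higher). The 4 facing chromatin, Mediator or DNA repair genes had −0.19 (3 lower, 1 higher), and the 9 others −0.25 (8 lower, 1 higher). All 6 medians were negative, as was that of all tested names; on scaled FPKM they ran from −0.06 to 0.17. By arrangement, the 22 head-to-head lncRNAs had a median of −0.19 and the 16 inside their partner −0.34; on scaled FPKM these were 0.04 and −0.03. The difference between arrangements was not tested.

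Among lncRNAs facing endocrine and foregut transcription factors, Hnf4aos starts 34910 bases inside the gene of HNF4A, a nuclear receptor of liver and beta cells, on chromosome 2 (163493804 to 163541721). It was at 0.63, 1.34, 0.83, 1.46 and 2.15 FPKM in the virgin libraries and 0.54, 0.72, 0.82 and 1.31 FPKM at GD14.5 (log2 fold change −0.37 ± 0.36, SE; limma adjusted p = 0.817; −0.12 on scaled FPKM). Gata6os is head to head with Gata6, a zinc-finger factor of pancreas formation, with starts 57 bases apart on chromosome 18 (11042037 to 11052567). Its levels were 1.64, 0.98, 0.76, 1.38 and 2.20 FPKM in virgin and 0.69, 0.91, 0.86 and 1.03 FPKM in GD14.5 libraries (log2 fold change −0.42 ± 0.35, SE; limma adjusted p = 0.817; −0.18 on scaled FPKM). Virgin 1, the library with the lowest sum, had the second highest Gata6os value, so that its scaled FPKM there was 3.54 against 0.79 to 1.36 in the other 8.

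Prox1os is head to head with Prox1, a homeodomain factor of pancreatic progenitors, on chromosome 1 (190170296 to 190217279; starts 531 bases apart). It was at 0.46, 1.03, 1.27, 1.03 and 1.12 FPKM in virgin and 0.22, 0.97, 0.80 and 1.58 FPKM in GD14.5 libraries. The log2 fold change was −0.16 ± 0.36 (SE; limma adjusted p = 0.849) and 0.03 on scaled FPKM, and the groups overlapped. None of these 3 passed the test. Of the lncRNAs at endocrine genes that the rule left out, Pax6os1 and Pcsk2os1 had −0.55 ± 0.53 and −0.34 ± 0.52 (SE; limma adjusted p = 0.817 and 0.819). Kirrel3os, also left out, had 1.65 ± 0.56 in the same fit and was not called (SE, limma adjusted p = 0.817). It was the 1 opposite-strand name past the threshold with the block (1.93 ± 0.20, SE, limma adjusted p = 2.48e-04). On scaled FPKM it passed as well (2.05 ± 0.30, SE, limma adjusted p = 0.00815). The count of 0 called therefore holds for the 52 and not for every name with the ending.

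Among the most abundant members was Fam120aos, which starts 52 bases from Fam120a, a gene of an RNA-binding scaffold protein, on chromosome 13 (48968112 to 48969905). It was at 5.26, 10.5, 8.03, 28.1 and 31.4 FPKM in virgin and 5.51, 6.57, 6.71 and 18.9 FPKM in GD14.5 libraries and its fold change on the log2 scale was −0.65 ± 0.60 (SE; limma adjusted p = 0.817). Replicate 4 lay far above the other 3 GD14.5 libraries, and without it the value was −1.03. It was −0.35 with the block or without virgin 5, −0.39 without virgin 4 and −0.29 ± 0.19 on scaled FPKM (SE). Ttc39aos1, inside the gene of a tetratricopeptide repeat protein, had 2.98, 7, 4.26, 16.8 and 21.6 FPKM against 3.66, 4.71, 4.66 and 16.8 FPKM, again with replicate 4 alone among the GD14.5 libraries at the level of virgin 4. Its log2 fold change was −0.38 ± 0.60 (SE) and −0.02 on scaled FPKM.

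A further 5 of high mean lay between 4.12 and 5.52 FPKM. Rab26os and Rab10os face genes of small GTPases, Rab26 of secretory granules and Rab10 of vesicle transport to the plasma membrane. Rab26os was at 1.49, 5.23, 3.01, 13.3 and 8.41 FPKM in virgin and 2.27, 5.05, 3.96 and 6.97 FPKM in GD14.5 libraries. Rab10os was at 2.17, 5.71, 3.12, 9.23 and 11.6 FPKM and at 3.45, 2.90, 3.10 and 6.86 FPKM. Both sets overlap, with log2 fold changes of −0.20 ± 0.55 and −0.44 ± 0.51 (SE; limma adjusted p = 0.869 and 0.817), and on scaled FPKM of 0.16 and −0.09.

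Zbtb11os1, inside the gene of a zinc-finger protein, was at 3.39, 4.74, 2.55, 6.63 and 7.77 FPKM in virgin and 3.93, 2.74, 3.02 and 5.30 FPKM in GD14.5 libraries (−0.32 ± 0.46, SE, and 0.02 on scaled FPKM). Ggnbp2os is head to head with Ggnbp2 and overlaps 833 bases of it; it was at 1.48, 2.78, 2.77, 6.90 and 7.93 FPKM and at 2.11, 3.79, 3.63 and 5.72 FPKM. Its log2 fold change was −0.03 ± 0.49 as deposited, 0.22 with the block and 0.32 on scaled FPKM (SE; limma adjusted p = 0.972, 0.719 and 0.545). No call was made for either.

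Epb41l4aos departed from the library pattern. It lies 337 bases beyond the end of Epb41l4a, a gene of a FERM-domain cytoskeletal protein, on chromosome 18 (33794892 to 33795989). Its values were 4.15, 6.68, 3.32, 4.00 and 6.48 FPKM in virgin and 4.54, 4.57, 2.99 and 6.12 FPKM in GD14.5 libraries. They ranged 2.23-fold as deposited and 3.79-fold after scaling, and the log2 fold change was −0.09 ± 0.45 (SE; limma adjusted p = 0.925). Abhd11os, Bcas3os1, Bcas3os2, Gata6os, Hand2os1 and Galnt6os likewise had a wider spread within groups after scaling than before. Bcas3os2 ranged 2.22-fold as deposited, from 0.41 FPKM in GD14.5 replicate 4 to 0.91 in virgin 2.

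Galnt6os varied most of all, 48.5-fold between libraries. It lies inside Galnt6, which encodes an enzyme that starts mucin-type O-glycans, on chromosome 15 (100695732 to 100699570). Its values were 1.32, 0.09, 0.12, 0.20 and 0.27 FPKM in virgin and 0.85, 0.04, 1.94 and 0.38 FPKM in GD14.5 libraries. The high libraries were virgin 1 and GD14.5 replicates 1 and 3, so both groups held high and low values. Its log2 fold change of 0.46 ± 0.41 was the highest of the 52 as deposited (SE; limma adjusted p = 0.817), while on scaled FPKM it was 0.56 ± 0.66, below Lrp8os3 and Lhx1os. As deposited it was 0.08 without GD14.5 replicate 3, 0.81 without GD14.5 replicate 2 and 0.75 without virgin 1. Ctrcos, which faces the gene of the acinar enzyme chymotrypsin C and lies below the minimum, was chosen for its values: 1.28, 0.19, 0.14, 0 and 0 FPKM in virgin and 0.17, 0, 0.29 and 0 FPKM in GD14.5 libraries. Virgin 1 was high for both, and GD14.5 replicate 3, the highest for Galnt6os, was the second highest for Ctrcos. Ctrcos was at 0.17 FPKM in GD14.5 replicate 1, where Galnt6os was high. It was at 0.19 and 0.14 in virgin 2 and 3, where Galnt6os was low. These values are as deposited and not scaled. A part of exocrine tissue in the Galnt6os values was not tested, since none of the 8 acinar markers has a line in the table.

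The other 4 of the highest fold changes were Lrp8os3, Lhx1os, Lppos and Stamos, each head to head with its partner. Lrp8os3 starts 136 bases from Lrp8, a gene of a reelin and apolipoprotein E receptor, on chromosome 4 (107793149 to 107802064). It was at 0.76, 1.48, 1.01, 3.13 and 4.28 FPKM in virgin and 1.66, 2.04, 1.8 and 6.86 FPKM in GD14.5 libraries, overlapping. In scaled FPKM the groups parted, at 1.47 to 2.18 in virgin and 2.68 to 5.29 at GD14.5. The log2 fold change was 0.43 ± 0.48 as deposited (SE, limma adjusted p = 0.817) and 0.69 ± 0.19 with the block (limma adjusted p = 0.176). On scaled FPKM it was 0.77 ± 0.19 (SE, limma adjusted p = 0.133). With both scaling and block it was 0.84 ± 0.14 (SE, limma adjusted p = 0.0782), the lowest adjusted p of the 52 in that fit. Without GD14.5 replicate 4 it was 0.01 as deposited and 0.57 on scaled FPKM.

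Lppos (chromosome 16, 24392556 to 24393655) overlaps the first 306 bases of Lpp, which encodes a LIM-domain protein of focal adhesions; its GC-rich window is printed above. Its values were 1.31, 2.40, 1.57, 5.35 and 6.51 FPKM in virgin and 2.35, 2.61, 3.41 and 5.75 FPKM in GD14.5 libraries. Scaled, they were 2.29 to 3.32 in virgin and 3.85 to 5.08 at GD14.5, without overlap. The log2 fold change was 0.18 ± 0.48 as deposited and 0.54 ± 0.13 on scaled FPKM (SE; limma adjusted p = 0.869 and 0.133). The value as deposited was −0.05 without virgin 1 or without GD14.5 replicate 4.

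Lhx1os starts 126 bases from Lhx1, a LIM-homeodomain gene of kidney and neural development, on chromosome 11 (84525660 to 84535831). It was at 0.56, 0.94, 0.51, 3.01 and 3.34 FPKM in virgin and 1.24, 1.23, 1.57 and 3.01 FPKM in GD14.5 libraries. Scaled values were 0.74 to 1.78 and 1.83 to 2.34, so the groups were just apart. The log2 fold change was 0.24 ± 0.45 as deposited and 0.59 ± 0.19 on scaled FPKM (SE; limma adjusted p = 0.833 and 0.263). As deposited it was 0.039 without virgin 1, 0.022 without virgin 3 and 0.0044 without GD14.5 replicate 4, and 0.47 and 0.50 without virgin 4 or virgin 5. The leading of its 3 lines held a mean of 30.8% of the level in the 5 virgin and 60.3% in the 4 GD14.5 libraries, with single shares from 0% to 73.4% that overlapped between groups.

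Stamos starts 28 bases from Stam, a gene of endosomal sorting, on chromosome 2 (14070333 to 14073934). It was at 0.39, 0.99, 0.17, 2.04 and 3.33 FPKM in virgin and 0.73, 1.16, 0.77 and 2.78 FPKM in GD14.5 libraries. The log2 fold change was 0.15 ± 0.46 (SE; limma adjusted p = 0.883), and 0.50 ± 0.29 on scaled FPKM, where the groups overlapped. As deposited it was −0.05 without virgin 1, −0.15 without virgin 3 and −0.16 without GD14.5 replicate 4.

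At the low end, Nell1os lies inside Nell1, a gene of a secreted osteogenic factor, on chromosome 7 (50517309 to 50575884). It was at 0.94, 2.29, 1.83, 2.73 and 3.76 FPKM in virgin and 0.98, 1.08, 1.22 and 1.5 FPKM in GD14.5 libraries. Virgin 1 lay below all 4 GD14.5 libraries and the other 4 virgin libraries lay above them. Its log2 fold change was −0.65 ± 0.39 as deposited and −0.36 ± 0.15 on scaled FPKM (SE; limma adjusted p = 0.817 and 0.426). Rptoros, inside the gene of the mTORC1 subunit Raptor, had 1.00, 2.44, 1.90, 3.38 and 5.48 FPKM against 1.36, 1.11, 1.38 and 1.93 FPKM (−0.64 ± 0.42, SE; limma adjusted p = 0.817), and −0.33 ± 0.13 on scaled FPKM. Man2c1os, head to head with a cytosolic mannosidase gene, had 0.40, 0.76, 0.63, 1.56 and 2.30 FPKM against 0.49, 0.29, 0.46 and 1.08 FPKM (−0.52 ± 0.37, SE; limma adjusted p = 0.817), and −0.28 ± 0.13 on scaled FPKM. None of the 3 passed the test.

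As deposited, the groups overlapped for all 52 lncRNAs, and over all names they did not overlap at 0.589%. On scaled FPKM GD14.5 lay wholly above virgin for 4 of the 52 (7.69%), against 2.78% of all names, and wholly below for 1 (1.92%), against 2.61%. The 4 were Lrp8os3, Lppos, Lhx1os and Brip1os, all head to head, as were 22 of the 52. Over those 22 the median on scaled FPKM was 0.04, with 14 higher and 8 lower. Brip1os and Tnk2os were named after their values were seen. Brip1os starts 145 bases from Brip1, a helicase gene of DNA crosslink repair, on chromosome 11 (86201360 to 86304443). It had 3.35 to 4.05 scaled FPKM in virgin and 4.08 to 5.14 at GD14.5 (log2 fold change 0.33 ± 0.11, SE; limma adjusted p = 0.280), but −0.01 ± 0.49 as deposited. The lower one was Tnk2os, inside the gene of the tyrosine kinase ACK, at 0.99 to 1.18 and 0.82 to 0.88 scaled FPKM (−0.21 ± 0.08, SE; limma adjusted p = 0.342). An unadjusted p under 0.05 on scaled FPKM was reached by 9 of the 52 (6 higher, 3 lower), against 10.1% of all names.

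**Figure D4:**
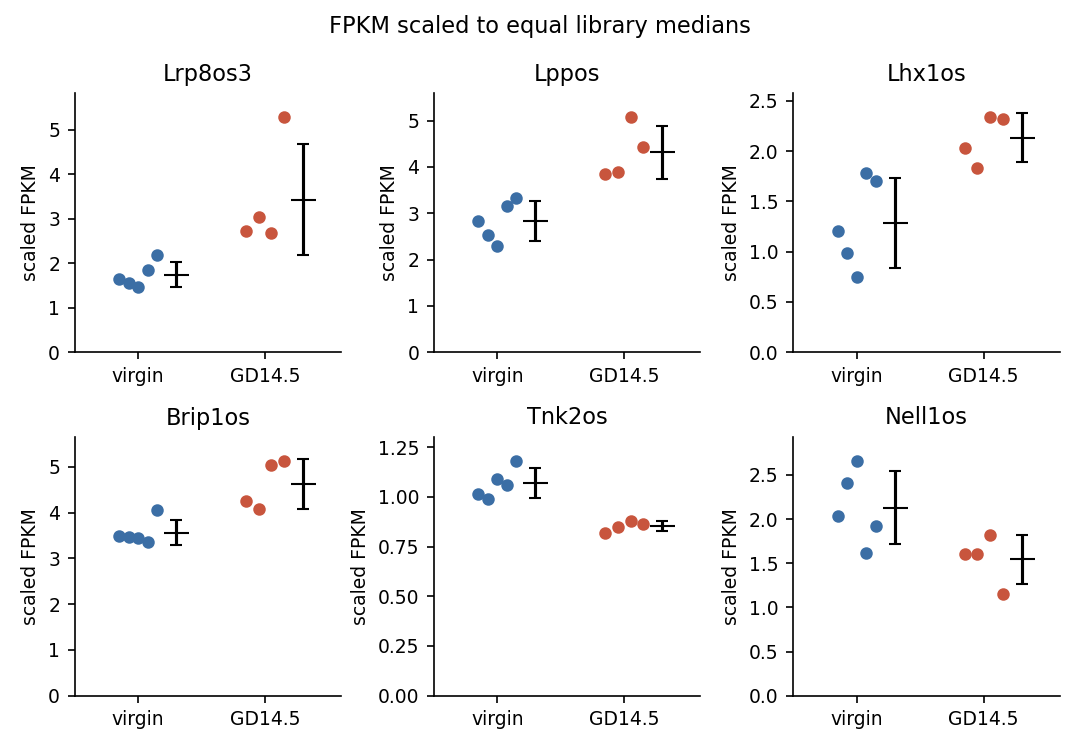
Scaled FPKM of 6 lncRNAs, with 1 point per library (5 virgin, 4 GD14.5) and the mean ± SD beside the points. The groups do not overlap for Lrp8os3, Lppos, Lhx1os, Brip1os and Tnk2os, and they overlap for Nell1os.

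The lncRNAs were also set against another transcript of the same library. Of the 50 coding partners, 6 had a line of their own in the table, and Lrp8 was below the minimum (mean 0.257 FPKM). Such a line is a transcript at the coding locus of unknown identity, and how the counting treated strand was not given in the sources used here, so reads of overlapping partners cannot be told apart. Ratios to the other 5 partner lines, and of the 2 pairs that share a partner, were chosen after the data were seen. The 7 log2 ratios of FPKM + 0.5 were compared with two-sided exact permutation tests over 126 splits. At low levels the 0.5 makes this ratio move with the scale of the library: for Parvaos to Parva the plain ratio was 0.121 in virgin 1 and 0.117 in virgin 5, and the tested value −2.04 and −2.68.

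The mean of Lpp was 10.1 ± 5.22 FPKM over the virgin libraries (SD, n = 5) and 7.85 ± 3.73 over those at GD14.5 (SD, n = 4). The FPKM ratio of Lppos to Lpp was 0.282, 0.284, 0.255, 0.347 and 0.411 in virgin libraries 1 to 5 and 0.445, 0.395, 0.556 and 0.430 in GD14.5 libraries 1 to 4. In these plain ratios virgin 5 lay above GD14.5 replicate 2. Only in the tested log2 ratio of FPKM + 0.5 did the groups not overlap (−1.68 to −1.22 and −1.19 to −0.76). The log2 ratio was 0.47 higher at GD14.5 (exact permutation p = 0.0159; adjusted over the 7 ratios, 0.111), so it did not pass. With the replicate number as a block the difference was 0.54, higher in 4 of 4 pairs (exact sign-flip p = 0.125, the smallest that 4 pairs allow).

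Mkln1os, 55 bases from the start of the muskelin gene Mkln1, stood at 0.433 to 0.670 times Mkln1 in virgin and 0.566 to 0.874 times at GD14.5 (log2 difference 0.38, exact permutation p = 0.0714; adjusted 0.250). Stk35os1 to Stk35, Parvaos to Parva and Tspan2os to Tspan2 differed by −0.06, −0.14 and 0.47 (exact permutation p = 0.770, 0.540 and 0.278; adjusted 0.770, 0.630 and 0.400). Lrp8os3 over Lrp8os2, which lies inside Lrp8, was 1.19 to 2.04 in virgin and 1.73 to 3.69 at GD14.5 (log2 difference 0.47, exact permutation p = 0.111; adjusted 0.259). With the block it was 0.57, higher in 4 of 4 pairs (exact sign-flip p = 0.125). For Bcas3os1 over Bcas3os2 the difference was −0.18 (exact permutation p = 0.286; adjusted 0.400). With the block the other 5 ratios had exact sign-flip p from 0.250 to 1. No ratio passed the adjusted threshold, which with 126 splits a single ratio could not do, however far apart its groups.

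**Figure D5:**
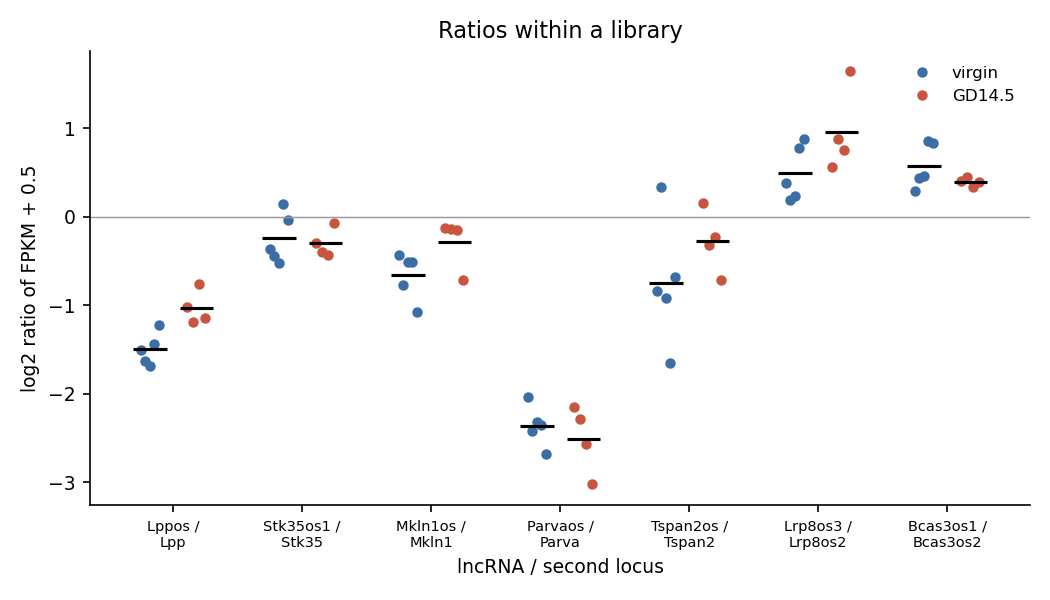
Log2 ratio of FPKM + 0.5 of an lncRNA to its partner's line, or to the other lncRNA of the same partner, in each library; bars are group means. For Lppos over Lpp the virgin points end at −1.22 and the GD14.5 points begin at −1.19, and for the other 6 ratios the groups overlap.

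Within a locus, 48 of the 52 lncRNAs had several lines. The leading line held at least 90% of the mean in 22 of them and under 50% in 10. Junos, which starts 95 bases from the immediate-early gene Jun, had 49 lines, and its leading line held 26.6%. Junos itself averaged 2.97 ± 1.47 FPKM over virgin libraries (SD, n = 5) and 2.96 ± 0.882 FPKM over GD14.5 libraries (SD, n = 4). In 0 of the 48 did the share of the leading line separate the groups. How often it does so over all names with several lines was not computed, so this 0 is not a result about these lncRNAs.

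Just above the minimum mean of 0.5 FPKM stood Plet1os at 0.564, Map2k3os at 0.567 and Galnt6os at 0.579. Just below were Acss2os at 0.496, Dbhos at 0.490 and Rsf1os2 at 0.467. A total of 147 names with the ending, the coding gene Nos1 included, lay below the minimum, 2 of them at 0 in every library. Among these, Egfros faces Egfr, which the study's title names, and was picked for that reason. It was at 0.27, 0.34, 0.24, 0.64 and 0.56 FPKM in virgin and 0.28, 0.32, 0.32 and 0.38 FPKM in GD14.5 libraries, which overlap.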

How the data were processed

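The deposited values are FPKM, computed by the authors for all 9 libraries (5 virgin, 4 GD14.5), with 1 line per transcript and 2 decimals. Reads were placed on GRCm38.p6, which the labels name in the submitters' processing notes. Which aligner, quantifier, annotation and strand handling were used was not given in the sources used here. Per the labels' protocols, RNA was extracted with TRIzol and enriched on oligo(dT) beads. Of 26375 lines, 480 with a copy suffix were left out, 1 of them of a member; 10705 of 10706 names matched a RefSeq symbol. The depth is unknown.

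Names with a mean of at least 0.5 FPKM were fitted together with limma 3.58.1 (R 4.3.3) on log2(FPKM + 0.5) (variance trend, two-sided, Benjamini-Hochberg over 2377 names). The pseudocount shrinks fold changes of low values. The code was checked on simulated data. Deviations of same-numbered libraries from their group means correlated across names at 0.20 to 0.59 in all 4 pairs, above the limit of 0.1 for pairing. Pairs of other numbers among virgin 1 to 4 ran from −0.55 to 0.25 and overlapped this range. Virgin 5 and GD14.5 replicate 4 correlated at 0.49. These values were not scaled, so the level of the library enters the correlations. The labels state no pairing, and whether the numbers mark pairs was not tested. The block was fitted as an alternative. Virgin 5 has no partner number at GD14.5, so fold changes with the block rest on the other libraries. A shift with the block can thus come from the loss of virgin 5.

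Named lncRNAs were the 8 highest means, the 5 highest and 5 lowest fold changes, any called or not overlapping, and those facing 45 listed endocrine and foregut genes; 1 of them is not reported here. Members and lists were chosen with earlier results of these data known. Positions, starts and sequences are from RefSeq on GRCm38.p6. Alternatives were other pseudocounts, minimums, scalings, blocks, transcript choices and libraries left out.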

Additional observations from a re-analysis of the deposited data

Results flagged for a closer look

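Dixon's test was applied to 36 sets of values, each 1 named lncRNA in 1 group. In 5 sets a single library stood apart. About 1.8 would do so by chance if the sets were independent. They hold values as deposited of the same 9 libraries, and some lncRNAs were named for extreme fold changes in them. The counts of 5 and 1.8 can therefore not be compared. For 3 lncRNAs this was GD14.5 replicate 4. On the log2(FPKM + 0.5) scale it reached 4.28 at Fam120aos against 2.59 to 2.85 in the other 3 libraries. At Ttc39aos1 it was 4.11 against 2.06 to 2.38, and at Lrp8os3 2.88 against 1.11 to 1.34. That library also had the highest summed FPKM of its group, and the part of this in the values was not tested. For Galnt6os virgin 1 was highest, at 0.86, and the other 4 of its group ran from −0.76 to −0.38. Prox1os in virgin 1 was the lowest, at −0.059 against 0.61 to 0.82. In scaled FPKM, Prox1os was at 0.99 in virgin 1, inside the virgin range of 0.57 to 1.85. Galnt6os was still apart there, at 2.85 against 0.09 to 0.17 in the rest of its group. Dixon's test was not applied to scaled values.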

How the results depend on the processing

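Of the 52 lncRNAs, 0 were called under the 32 alternatives, although a minimum mean of 1 FPKM left only 36 of them to test. Their lowest limma adjusted p was 0.0602, on equal medians without the 3 libraries with the largest sums. Of these alternatives, 9 left out 1 library as deposited and 9 did so on equal library medians. Over all names the count of called loci was 4 as deposited and 3 to 5 without 1 library. It was 26 with the replicate block (23 higher, 3 lower), 29 on equal medians (25 and 4), 31 on equal totals, 29 after quantile normalization, 25 with the replicate block on equal medians and 14 without the 3 libraries with the largest sums (13 and 1). On equal medians it was 22 to 32 without 1 library and 15 without those 3. The median log2 fold change of the lncRNAs stayed between −0.43 and −0.09 without 1 library, and was 0.00 to 0.05 on equal medians. Of 20 lncRNAs followed, 7 changed sign in at least 1 fit that left out 1 library as deposited. The cause was not tested. These log2 values changed sign. With the replicate block: Epb41l4aos 0.010, Ggnbp2os 0.22, Brip1os 0.24. On equal medians: Rab26os 0.16, Epb41l4aos 0.23, Zbtb11os1 0.017, Ggnbp2os 0.32, Prox1os 0.026, Brip1os 0.33. On equal totals: Rab26os 0.073, Epb41l4aos 0.15, Ggnbp2os 0.24, Brip1os 0.25. After quantile normalization: Rab26os 0.11, Epb41l4aos 0.19, Ggnbp2os 0.28, Prox1os 0.041, Brip1os 0.28. With the replicate block on equal medians: Ttc39aos1 0.089, Rab26os 0.12, Epb41l4aos 0.12, Ggnbp2os 0.36, Brip1os 0.37. Without the 3 libraries with the largest sums: Rab26os 0.26, Ggnbp2os 0.37, Brip1os 0.25 as deposited, and 0.32, 0.42 and 0.30 on equal medians. With the most abundant transcript only: Ggnbp2os 0.038. Leaving out 1 library, as deposited or on equal medians, gave ranges across 0 of −0.84 to 0.10 for Ttc39aos1, −0.57 to 0.33 for Rab26os, −0.23 to 0.45 for Epb41l4aos, −0.51 to 0.17 for Zbtb11os1, −0.30 to 0.45 for Ggnbp2os, −0.055 to 0.58 for Lppos, −0.16 to 0.63 for Stamos, −0.55 to 0.10 for Gata6os, −0.38 to 0.29 for Prox1os and −0.28 to 0.39 for Brip1os. The log2 ratio ran from −0.14 to 0.040 for Stk35os1 to Stk35 and from −0.26 to 0.031 for Parvaos to Parva. The alternatives on equal medians that left out libraries, and those of the ratios, were chosen after seeing the data. Without counts in the table, the precision of low FPKM values is unknown.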
